A study of Mus musculus with 18 samples.

Results

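The mRNAs of the cytosolic ribosomal proteins were followed in lung epithelial cells of mice in which the long non-coding RNA Falcor, the transcription factor gene Foxa2, or both had been altered. The members are all genes whose symbol marks a protein of the large subunit (Rpl), the small subunit (Rps) or the stalk (Rplp), together with Rpsa and Fau, with pseudogenes left out. The rule names 77 genes in the annotation and 76 of the 15544 genes of the data set, 45 of the large and 31 of the small subunit. Rpl24 was not analysed here. All 76 passed the filter on low values, a mean of at least 6 log2 units. The 18 libraries were made from total RNA of cells carrying the epithelial surface protein EpCAM, captured on magnetic beads from animals 10 to 12 weeks old. They comprise 5 libraries from Falcor-/- animals (replicates 6 to 10), 4 from Foxa2+/- animals (replicates 11 to 14), 4 from animals labelled Double-Het, given as Falcor+/-;Foxa2+/- (replicates 15 to 18), and 5 from wild-type animals (replicates 1 to 5). The labels name no strain, sex, treatment or preparation batch and do not say whether each library came from its own animal, so the p-values measure the spread between these libraries.

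Each cytosolic ribosome is built from a small subunit, which reads the mRNA, and a large subunit, which joins amino acids, and each subunit carries nearly all of its proteins as single copies. Cells therefore make these proteins in matched amounts, and their mRNAs are among the most abundant in any tissue. Most of these mRNAs begin with a run of pyrimidines, the 5′ terminal oligopyrimidine (TOP) tract, through which the kinase complex mTORC1 and the protein LARP1 adjust their translation and stability to nutrients and growth signals. Ribosomal protein genes have also left many processed pseudogenes, intronless copies of their mRNAs elsewhere in the genome, and short reads can be hard to assign between a gene and such a copy.

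The pyrimidine runs are shown for the members described below for their small p-values in the Falcor-/- comparison, whether the run is long or short, taken from RefSeq gene starts on GRCm38.p6 by gene symbol. Capitals mark the longest run of C and T that covers the annotated start or lies within 2 bases of it, read on the gene's own strand, in a window of 10 bases before the start and 20 from it. The windows are chr14:24490668-24490697 on the plus strand for Rps24, chr14:18270967-18270996 on the minus strand for Rpl15, chr2:39005112-39005141 on the minus strand for Rpl35, and chr7:3704031-3704060 on the plus strand for Rps9. The Rpl4 window is chr9:64173377-64173406 on the plus strand, with no pyrimidine within 2 bases of the start. The other windows are chr17:24720053-24720082 for Rps2, chr9:120127756-120127785 for Rpsa, chrX:134585644-134585673 for Rpl36a and chr11:68901556-68901585 for Rpl26, all on the plus strand.
Rps24: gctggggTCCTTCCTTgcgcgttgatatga
Rpl15: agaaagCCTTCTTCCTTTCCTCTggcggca
Rpl35: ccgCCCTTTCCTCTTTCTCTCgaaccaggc
Rps9: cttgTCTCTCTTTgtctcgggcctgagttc
Rpl4: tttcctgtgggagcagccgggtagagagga
Rps2: gtcgagaTCTCgcgcttcttggagcactat
Rpsa: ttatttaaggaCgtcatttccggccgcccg
Rpl36a: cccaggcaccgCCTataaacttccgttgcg
Rpl26: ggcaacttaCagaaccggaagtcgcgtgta
A start was listed for 56 of the 76 members. A run of at least 5 pyrimidines lay there in 25 of these, or 44.6%, against 26.4% of 11230 other measured genes. A start placed a few bases off would hide a run. A short run says only that a longer one was not found within 2 bases of the annotated start. Runs elsewhere in these windows are in small letters.

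The genotypes were checked in the RNA. Falcor, annotated as 9030622O22Rik, was lower in Falcor-/- libraries by a log2 change of -3.98 ± 0.27 (SE, limma adjusted p = 6.35e-07), higher in Foxa2+/- libraries by 1.52 ± 0.29 (limma adjusted p = 0.00325) and higher in libraries labelled Double-Het by 1.48 ± 0.29 (limma adjusted p = 0.00242). The label of the last group, with a lost Falcor allele, was thus not reflected in a lower Falcor level. Foxa2 changed by -0.23 in Falcor-/- (limma adjusted p = 0.115), by -0.57 in Foxa2+/- (limma adjusted p = 0.00245) and by -0.60 in Double-Het libraries (limma adjusted p = 0.000891). The alveolar type 2 markers averaged 17.19 in Falcor-/-, 17.40 in Foxa2+/-, 17.36 in Double-Het and 17.28 in wild-type libraries, and 0 of 10 were called in any of the 3 comparisons with wild type, while 2 passed an unadjusted limma p under 0.05 in Falcor-/- cells, 1 in Foxa2+/- cells and 1 in Double-Het cells. The mean over 10 general epithelial markers was 13.98 ± 0.13 in Falcor-/-, 13.88 ± 0.038 in Foxa2+/-, 14.01 ± 0.14 in Double-Het and 13.68 ± 0.078 in wild-type libraries (SD). Of these, 4 were called higher than in wild type in Falcor-/- cells, 2 in Foxa2+/- cells and 2 in cells labelled Double-Het. Of 8 alveolar type 1 markers 6 were called lower in Foxa2+/- cells and 6 in cells labelled Double-Het, while in Falcor-/- cells limma called 0 and 1 passed without adjustment. Markers of other cells were present and differed by genotype. The mean over 22 endothelial markers was 11.87 ± 0.69 in Falcor-/-, 10.62 ± 0.22 in Foxa2+/-, 10.23 ± 0.24 in Double-Het and 12.62 ± 0.60 in wild-type libraries (SD), and in such bulk samples fewer cells of a type and less RNA per cell cannot be told apart. Called lower than in wild type were 1 of 22 endothelial, 5 of 15 mesenchymal and 6 of 12 macrophage markers in Falcor-/- cells. In Foxa2+/- cells 19 endothelial and 7 mesenchymal markers were called lower, and in cells labelled Double-Het 20 endothelial, 13 mesenchymal and 6 macrophage markers. Of all 15249 tested genes limma called 9.47% in Falcor-/-, 6.11% in Foxa2+/- and 14.8% in Double-Het cells against wild type, in either direction. Without adjustment 33.5%, 19.2% and 29.8% of all genes passed, in the same order. All levels are on a log2 scale on which every library has nearly the same distribution, and the sequencing depth of each library is unknown. A level is therefore relative to the other genes of the same library.

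The ribosomal protein mRNAs moved together from library to library, and the large and small subunit moved the same way. The shift of a library is the mean, over the members, of each member's log2 level minus its own mean over the 18 libraries. In Falcor-/- libraries it was 0.12, -0.016, 0.30, 0.40 and 0.15 for replicates 6 to 10. In Foxa2+/- libraries it was -0.028, -0.073, -0.26 and -0.16 for replicates 11 to 14. Every Falcor-/- library was thus above every Foxa2+/- library. Libraries 15 to 18, the Double-Het ones, gave 0.19, 0.35, -0.14 and -0.052. In wild-type libraries it was -0.28, -0.34, -0.055, -0.065 and -0.044 for replicates 1 to 5. By this mean every Falcor-/- library also lay above every wild-type library. That order did not hold for the median over members, which was -0.012 in Falcor-/- replicate 7 and 0.030 in wild-type replicate 5. Above their own mean were 28 members in Falcor-/- replicate 7 and 50 in wild-type replicate 5. The Double-Het libraries separated into a high pair, 15 and 16, and a low pair, 17 and 18. The genotype mean was 0.19 ± 0.16 in Falcor-/-, -0.13 ± 0.10 in Foxa2+/-, 0.087 ± 0.22 in Double-Het and -0.16 ± 0.14 in wild-type libraries (SD over libraries). The distance from the lowest to the highest library was 0.737 log2 units, and the SD of the shift within genotypes was 0.16.

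**Figure D1:**
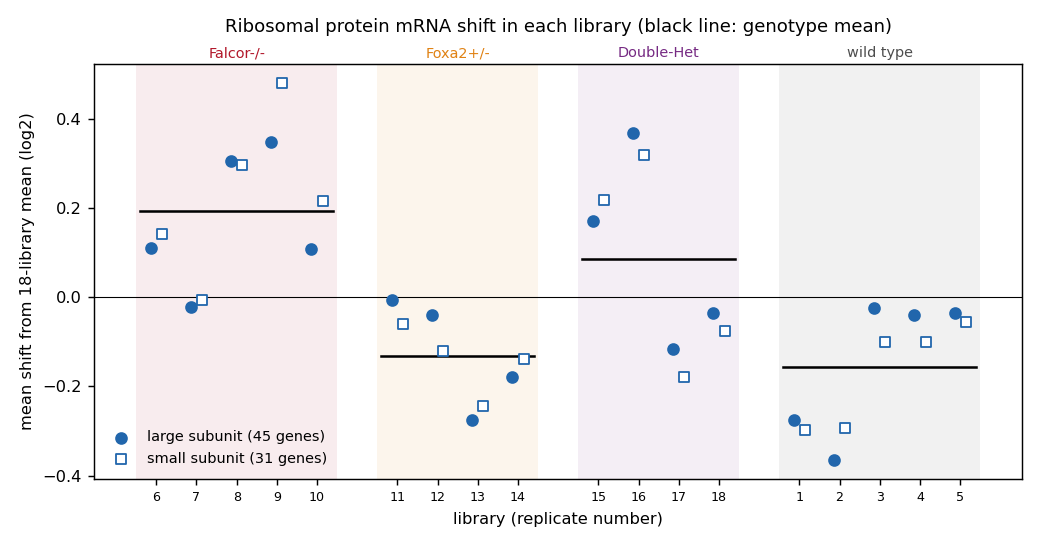
Mean log2 shift of 45 large-subunit members (filled circles) and 31 small-subunit members (open squares) in each library, measured from each gene's mean over the 18 libraries. Black lines are the genotype means of all 76 members. Both subunits lie on the same side of 0 in all 18 libraries, Falcor-/- replicate 9 is highest at 0.40 over all members and wild-type replicate 2 lowest at -0.34.

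The shift was not a matter of a few genes. Falcor-/- replicate 9 held the highest level of 69 of the 76 members, and wild-type replicates 1 and 2 held the lowest level of 28 and 31 members. In Double-Het replicate 16 all 76 members lay above their own mean, and in wild-type replicate 2 none of the 76 did. The large-subunit and small-subunit shifts had the same sign in 18 of 18 libraries. The large minus the small shift was -0.056 ± 0.062 in Falcor-/-, 0.015 ± 0.060 in Foxa2+/-, 0.027 ± 0.050 in Double-Het and 0.022 ± 0.058 in wild-type libraries (SD), and its largest size in any library was 0.133, in Falcor-/- replicate 9. The Falcor-/- replicates 9 and 10, at -0.13 and -0.11, were the libraries where the small subunit stood furthest above the large one.

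For each member the common shift of a library was here taken as the median over the other members. Once that shift was subtracted, little spread was left in most members. The median SD within genotypes fell to 0.0461 log2 units, from 0.173 before, whereas the median over all tested genes was 0.209 without any subtraction. The SD after subtraction was at most 0.1 in 66 members. It was above 0.25 in 6 members, all of which have very uneven levels described further on: Rpl29, Rpl34, Rps18, Rpl35a, Rpl30 and Rpl21.

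Other measures ran alongside the shift. The 75 measured mitochondrial ribosomal protein genes, which serve a separate ribosome, had shifts of 0.11 ± 0.18 in Falcor-/-, -0.043 ± 0.046 in Foxa2+/-, 0.049 ± 0.22 in Double-Het and -0.12 ± 0.077 in wild-type libraries (SD). Epcam, which encodes the protein used for capture, averaged 14.17 ± 0.16 in Falcor-/-, 13.98 ± 0.16 in Foxa2+/-, 14.19 ± 0.24 in Double-Het and 13.89 ± 0.11 in wild-type libraries. Its level was 14.48 in Double-Het replicate 16 and 14.26 in Falcor-/- replicate 9, against 13.75 in wild-type replicate 1 and 13.79 in wild-type replicate 2. The libraries with high and low ribosomal protein shifts were thus also towards the high and low ends of the Epcam range. Counts with Epcam or the endothelial markers as a covariate are given below, and whether Epcam RNA and ribosomal protein mRNA share a source was not tested.

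In Falcor-/- cells 41 of the 76 members were higher than in wild-type cells and none was lower by limma at an adjusted p under 0.05, where 9.47% of all 15249 tested genes were called in either direction and 5.23% were called higher. Without adjustment 66 members passed a limma p under 0.05, against 33.5% of all genes, and 66 passed an exact permutation test, against 26% of all genes. The called members were 22 of the 31 small-subunit and 19 of the 45 large-subunit genes. The median change was 0.35 log2 units over the members, a 1.27-fold difference, 0.33 over the large and 0.35 over the small subunit, against 0.029 over all tested genes. The middle portion of the members lay close together, with quartiles at 0.29 and 0.39. Falcor-/- and wild-type libraries did not overlap, Falcor-/- being higher, for 20 members or 26.3%, against 4.22% of all genes. The endothelial mean was lower in Falcor-/- libraries than in wild type by the values above, and with that mean as a covariate 2 members, or 2.63%, were called, against 1.06% of all genes. Without adjustment 63 members, or 82.9%, passed in that fit, against 25% of all genes. With the Epcam level as a covariate limma called 0 members and 0.289% of all genes, and the median change of the members was 0.11. Without adjustment 10 members, or 13.2%, passed there, against 10.3% of all genes. Epcam itself changed by 0.29 (limma adjusted p = 0.0722), and of the 10 epithelial markers, Epcam included, 4 were called higher, with a median change of 0.30. The part of these markers in the result was not tested beyond these fits.

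Among small-subunit genes Rps24, needed for maturation of the small-subunit ribosomal RNA and mutated in Diamond-Blackfan anaemia, had the smallest p-value. It stood at 14.91, 14.74, 15.10, 15.30 and 15.06 in Falcor-/- replicates 6 to 10, against 14.22, 14.29, 14.47, 14.43 and 14.08 in wild-type replicates 1 to 5. Every Falcor-/- library was above every wild-type library. The change was 0.73 ± 0.12 (SE, limma adjusted p = 0.00329), and the exact permutation p was 0.00794, the smallest that 5 against 5 libraries allow.

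Rps2, which lies near the channel where mRNA enters the ribosome, gave 15.11, 14.34, 15.16, 15.33 and 14.53 in Falcor-/- libraries, against 14.18, 14.14, 14.21, 14.27 and 14.15 in wild-type libraries. The wild-type libraries were nearly level, and among the Falcor-/- libraries replicates 7 and 10 were the low ones. The change was 0.70 ± 0.16 (limma adjusted p = 0.0192). Rpsa, the small-subunit protein also known as the laminin receptor, changed by 0.52 ± 0.12 (limma adjusted p = 0.0188) and Rps9, which helps keep decoding accurate, by 0.35 ± 0.089 (limma adjusted p = 0.0282). Rps6, the protein phosphorylated by S6 kinase downstream of mTORC1, rose by 0.34 ± 0.092 (limma adjusted p = 0.0340), with no overlap between the groups.

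The large-subunit genes with the smallest p-values were also higher. Rpl15 read 13.65, 13.59, 13.83, 13.91 and 13.68 in Falcor-/- libraries, against 13.23, 13.28, 13.39, 13.39 and 13.43 in wild-type libraries. Rpl4, whose protein lines the tunnel by which the new chain leaves, read 16.11, 15.95, 16.13, 16.23 and 16.13 in Falcor-/- libraries, against 15.60, 15.66, 15.87, 15.89 and 15.92 in wild-type libraries. In both genes every Falcor-/- library was above every wild-type library. The change was 0.39 ± 0.079 for Rpl15 (limma adjusted p = 0.0123) and 0.32 ± 0.073 for Rpl4 (limma adjusted p = 0.0188). Rpl35, next to the tunnel exit, changed by 0.47 ± 0.11 (limma adjusted p = 0.0195), Rpl36a by 0.49 ± 0.12 (limma adjusted p = 0.0281) and Rpl26, known for regulating p53 translation, by 0.44 ± 0.11 (limma adjusted p = 0.0282). Rpl5, which with Rpl11 and the 5S RNA can bind the p53 regulator Mdm2, rose by 0.29 ± 0.084 (limma adjusted p = 0.0404), and Rpl11 itself changed by 0.29 ± 0.10 without passing the test (limma adjusted p = 0.0737).

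Some members had smaller changes or changes in the other direction. The stalk recruits the elongation factors, and its base protein Rplp0 changed by 0.031 ± 0.093 (limma adjusted p = 0.830). Rplp0 read 15.97, 15.77, 15.93, 16.13 and 15.77 in Falcor-/- libraries, against 15.73, 15.70, 15.94, 15.98 and 16.06 in wild-type libraries, so that 3 of the 5 wild-type libraries lay within the Falcor-/- range. Rplp1 changed by 0.032 ± 0.12 (limma adjusted p = 0.867). Rplp2, the partner of Rplp1, had a change of 0.36 ± 0.12 (limma adjusted p = 0.0638), near the median of the members but with a larger error. The genes that make a ribosomal protein fused to ubiquitin or a ubiquitin-like protein gave 0.35 ± 0.11 for Rps27a (limma adjusted p = 0.0499) and 0.34 ± 0.11 for Fau (limma adjusted p = 0.0550). Rps19, the gene most often mutated in Diamond-Blackfan anaemia, changed by 0.16 ± 0.11 (limma adjusted p = 0.319). The members below wild type were Rpl34 at -0.44 ± 0.45 (limma adjusted p = 0.491) and Rpl30 at -0.40 ± 0.23 (limma adjusted p = 0.234), and neither passed the test.

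**Figure D2:**
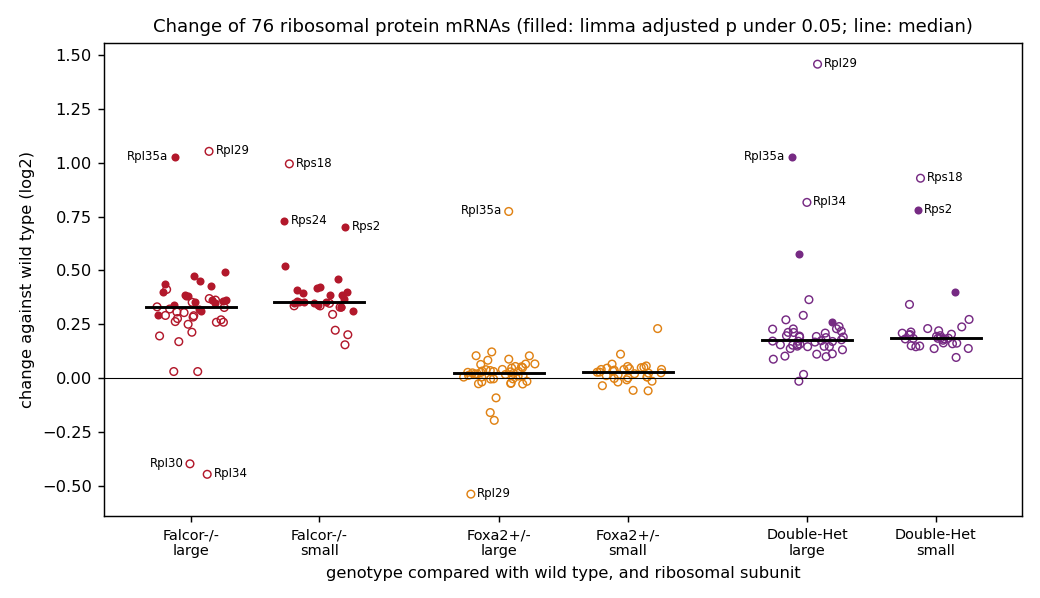
Change in log2 level of each of the 76 members against wild type, for Falcor-/-, Foxa2+/- and cells labelled Double-Het, split by ribosomal subunit; filled points passed a limma adjusted p under 0.05 and black lines are medians. In Falcor-/- cells the quartiles are 0.29 and 0.39 and 41 points are filled, in Foxa2+/- cells the quartiles are -0.00087 and 0.048 and 0 are filled, and in cells labelled Double-Het 5 are filled.

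The count of 41 depended on single libraries far more than the size of the change did. Leaving out wild-type replicate 1 left 4 called members and leaving out replicate 2 left 5. With replicate 3, 4 or 5 left out the count was 31, 14 or 55. On the Falcor-/- side it was 21 without replicate 6, 66 without replicate 7, 5 without replicate 8, 7 without replicate 9 and 17 without replicate 10. The median change stayed between 0.29 and 0.40 over these 10 omissions. In a fit of these 2 genotypes alone the count was 8. The share of all genes called in each omission or in that fit is not given here. These counts therefore do not tell a loss particular to the members from a general loss of calls. Among the members given above for their small p-values, Rps24 and Rpl15 kept their call in all 10 omissions. Rpsa and Rps2 lost it in 1, Rpl4 in 2, Rpl35 in 3, and Rpl36a, Rpl26 and Rps9 in 4. For Rps6, Rpl5 and Rps27a, also called above with larger p-values, these omissions are not given.

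**Figure D3:**
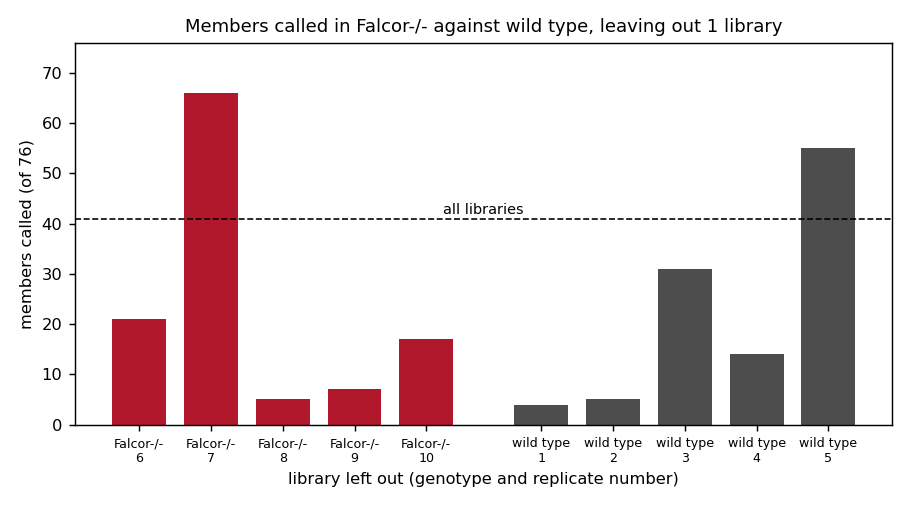
Number of the 76 members that passed a limma adjusted p under 0.05 in Falcor-/- against wild type when the library named under each bar was left out. The dashed line is the count with all libraries, 41, and the bars run from 4 to 66. The share of all genes called in each omission is not given.

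In Foxa2+/- cells the ribosomal protein mRNAs were close to wild type. By limma 0 of the 76 members passed an adjusted p under 0.05, where 6.11% of all tested genes did, 1 passed an unadjusted limma p under 0.05, against 19.2% of all genes, and 0 passed an unadjusted exact permutation test, against 21.4% of all genes. With the endothelial mean as a covariate limma called 0 members and 0 of all genes, and 1 member passed without adjustment, against 4.14% of all genes. With the Epcam level it called 0 members, against 8.34% of all genes, and 1 passed without adjustment, against 24% of all genes. The median change was 0.027, against 0.039 over all genes, with quartiles at -0.00087 and 0.048. The gene with the smallest p-value was Rpl35a at 0.77 ± 0.29 (limma adjusted p = 0.132), whose wild-type libraries were uneven, and it passed when wild-type replicate 3 was left out, the omission that gave 1 called member. Among the small-subunit genes Rps24 changed by 0.23 ± 0.12 (limma adjusted p = 0.326) and Rpsa by 0.11 ± 0.13 (limma adjusted p = 0.715). The remaining members with the smallest p-values changed by 0.12 for Rpl26, 0.10 for Rpl23a and Rpl10a, 0.066 for Rps15a and 0.050 for Rps25, and by -0.090 for Rplp1 and -0.058 for Rps4x. The lowest changes were -0.54 ± 1.20 for Rpl29, -0.19 ± 0.47 for Rpl34 and -0.16 ± 0.24 for Rpl21, all with errors larger than the change. For Rps6 the 95% interval of the difference ran from -0.20 to 0.21, and for Rps24 from -0.029 to 0.49, so the interval of Rps6 does not reach its change in Falcor-/- cells, 0.34.

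In cells labelled Double-Het 5 of the 76 members were higher than in wild type and none was lower by limma at an adjusted p under 0.05, where 14.8% of all tested genes were called in either direction and 7.21% higher. The share of the members called higher was 6.58%. With library weights the count was 65, or 85.5%, where 32.4% of all genes were called in either direction. The libraries labelled Double-Het were not lower than wild type in Falcor RNA. The median change was 0.19, against 0.069 over all genes, and 75 members had a change above 0, as did 61.1% of all genes. Groups did not overlap, Double-Het being higher, for 5 members, or 6.58%, against 8.61% of all genes. Of the 22 endothelial markers 20 were called lower in cells labelled Double-Het, and with their mean as a covariate limma called 0 members and 0.0131% of all genes, and 0 members passed without adjustment, against 5.36% of all genes. Epcam changed by 0.30 (limma adjusted p = 0.0700), and with its level as a covariate limma called 0 members, against 6.96% of all genes, 3 members or 3.95% passed without adjustment, against 22.3% of all genes, and the median change was -0.060.

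The called genes were Rps2, Rpl3, Rpl35a, Rps24 and Rpl15. Rps2 read 15.14, 15.27, 14.80 and 14.68 in Double-Het replicates 15 to 18, all above the highest wild-type library at 14.27. The change was 0.78 ± 0.17 (limma adjusted p = 0.00539). Rpl3, which reaches into the peptidyl transferase centre, read 15.65, 15.40, 15.32 and 15.27 in Double-Het libraries, against 15.003, 14.52, 14.70, 15.10 and 14.85 in wild-type libraries. It changed by 0.58 ± 0.15 (limma adjusted p = 0.0169). Rpl35a changed by 1.02 ± 0.29 (limma adjusted p = 0.0241), Rps24 by 0.40 ± 0.12 (limma adjusted p = 0.0363) and Rpl15 by 0.26 ± 0.084 (limma adjusted p = 0.0466). The next members were Rpl4 at 0.19 (limma adjusted p = 0.107), Rpl26 at 0.27 (limma adjusted p = 0.131), Rps18 at 0.93 (limma adjusted p = 0.0719), Rpsa at 0.34 (limma adjusted p = 0.0764) and Rps21 at 0.27 (limma adjusted p = 0.162). Rps2 kept its call in all 9 omissions of a library, while Rpl3 lost it in 1, Rpl35a in 4, Rps24 in 5 and Rpl15 in 7. The count of 5 was 1 without Double-Het replicate 15, 2 without Double-Het replicate 16, 2 if wild-type replicate 2 was left out, and 3 if it was replicate 1 or 5, or in a fit of the compared genotypes alone. The share of all genes called in these fits is not given.

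Between the mutant genotypes, Falcor-/- cells had 29 members higher and none lower than Foxa2+/- cells by limma, 19 of the small and 10 of the large subunit, where 16.7% of all genes were called and 8.56% were called higher. The median change was 0.32, and the groups did not overlap for 43 members, or 56.6%, against 6.86% of all genes. The endothelial mean also differed between these genotypes, by the values above. With it as a covariate limma called 0 members and 0.177% of all genes, and 39 members, or 51.3%, passed without adjustment, against 16.8% of all genes. With the Epcam level as a covariate 6 members, or 7.89%, were called, against 6.53% of all genes. Without adjustment 47.4% of the members passed in that fit, against 24.4% of all genes. An unadjusted exact permutation test passed 61 members, against 27.9% of all genes. Rpl15 changed by 0.41 ± 0.084 (limma adjusted p = 0.00732), with means of 13.73 in Falcor-/- and 13.32 in Foxa2+/- libraries. With its pseudogene copies added the groups were closer. Rpl15 then read 13.66, 13.60, 13.85, 13.92 and 13.69 in Falcor-/- libraries, against 13.53, 13.54, 13.48 and 13.55 in Foxa2+/- libraries. Without Foxa2+/- replicate 11 the count was 21. It was 12, 3 and 5 without Foxa2+/- replicates 12, 13 and 14, and 14, 61, 14, 6 and 7 without Falcor-/- replicates 6 to 10. The share of all genes called in each of these omissions is not given. The comparison of Falcor-/- with Foxa2+/- libraries shares its Falcor-/- samples with the comparison to wild type. In cells labelled Double-Het limma called 1 member higher than in Foxa2+/- cells, Rps2 at 0.78 ± 0.18 (limma adjusted p = 0.0324), where 2.43% of all genes were called and 1.06% were called higher, and that count was 0 when any 1 of libraries 11 to 17 was left out. The exact permutation test passed 4 members there without adjustment, against 11.9% of all genes, with 0.0286 the smallest p that 4 against 4 libraries allow. Between Double-Het and Falcor-/- cells limma called 0 members, where 5.15% of all genes were called, 5 members passed an unadjusted limma p under 0.05, against 21.2% of all genes, and 2 passed an unadjusted exact permutation test, against 15.1%. The median change of Double-Het against Falcor-/- was -0.16. A change above 0 was found for 8 members, against 54.1% of all genes. The count was 1 without Falcor-/- replicate 7 or without Double-Het replicate 18.

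A few members did not follow the common shift but stepped between libraries of the same genotype. Rpl29, a basic protein of the large subunit, was the extreme case. It read 13.75, 13.51, 13.88, 10.22 and 9.89 in Falcor-/- replicates 6 to 10 and 13.52, 9.94, 9.54 and 9.66 in Foxa2+/- replicates 11 to 14. It read 9.90, 13.91, 13.37 and 13.44 in Double-Het replicates 15 to 18 and 9.48, 9.44, 13.39, 13.49 and 10.21 in wild-type replicates 1 to 5. The 18 libraries thus split into 9 high and 9 low ones with a gap of 3.14 log2 units between them, and both kinds occurred in every genotype. Gm10709, a pseudogene copy of Rpl29, was also high where Rpl29 was high, between 6.92 and 7.63, and between 3.42 and 4.86 elsewhere. In consequence the Falcor-/- change of Rpl29, 1.05 ± 1.13, was smaller than its error.

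Rpl34, a large-subunit protein at the outer face of the ribosome, had 6 high libraries. It read 11.63, 11.49, 11.87, 11.99 and 11.68 in Falcor-/- libraries and 11.59, 13.30, 11.49 and 11.54 in Foxa2+/- libraries. It read 13.58, 13.67, 13.10 and 11.62 in Double-Het libraries and 13.06, 11.35, 13.24, 11.55 and 11.68 in wild-type libraries. All 5 Falcor-/- libraries were in the low set, and 3 of 4 Double-Het libraries were in the high set.

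Rps18, of the small-subunit head, was low in 2 libraries, at 12.38 in Foxa2+/- replicate 12 and 12.46 in wild-type replicate 5, with a gap of 1.18 to the other 16. Elsewhere it read 14.68, 13.94, 14.75, 14.95 and 14.21 in Falcor-/- libraries, 13.91, 13.72 and 13.80 in Foxa2+/- libraries, 14.70, 14.84, 14.32 and 13.91 in Double-Het libraries and 13.65, 13.67, 13.88 and 13.90 in wild-type libraries. Of all tested genes, 3 others separated the same 2 libraries from the rest by a gap of at least 0.5, namely Atp6v0c, Rnps1 and H2-Eb2, and all 3 lie on chromosome 17 like Rps18. Rps2 lies on this chromosome too. In Falcor-/- libraries Rnps1 read 12.08, 11.37, 12.23, 12.22 and 11.40, and Atp6v0c read 13.22, 12.75, 13.42, 13.27 and 12.67. Both were lowest in replicates 7 and 10, as were Rps18 and Rps2, while H2-Eb2 was lowest in replicate 9. Among Double-Het libraries all of them were lowest in replicate 18. Whether these levels share a source was not tested. For Rps18 every Falcor-/- library was above every wild-type library, with a change of 0.99 ± 0.32 that did not pass the adjusted test (limma adjusted p = 0.0534). Rpl35a, another gene of Diamond-Blackfan anaemia, was low at 11.88 and 12.19 in wild-type replicates 2 and 5. Its other wild-type libraries read 13.08, 13.72 and 13.22, and its Falcor-/- libraries read 13.84, 13.38, 14.07, 13.86 and 14.06, giving a change of 1.03 ± 0.27 (limma adjusted p = 0.0310). Here 3 other genes separated the same libraries, and 0 of them lie on the chromosome of Rpl35a. Rpl21 was low, between 13.88 and 14.23, in Falcor-/- replicates 7 and 10, Foxa2+/- replicates 12 and 14 and wild-type replicate 2.

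**Figure D4:**
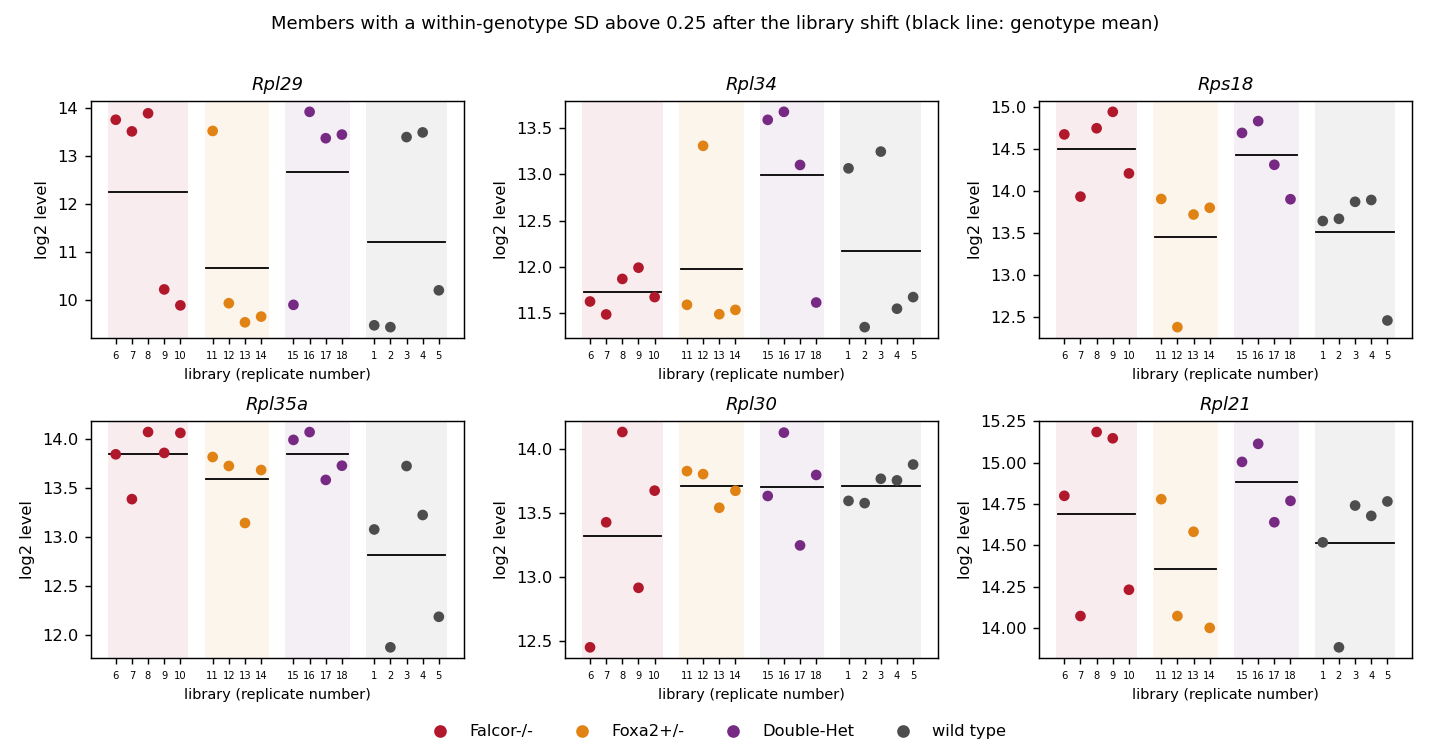
Log2 level in each library of the 6 members with a within-genotype SD above 0.25 after the library shift was subtracted, with black lines for genotype means. The shift subtracted was the median over the other members. Rpl29 splits into levels near 13.5 and near 10 in every genotype, Rpl34 is high in 6 libraries, and Rps18 and Rpl35a are each low in 2.

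Processed pseudogenes bear on some of these levels. By sequence, 99 measured pseudogenes matched a member over at least 150 bases at 95% identity or more, for 56 of the members, and 20 members had no such copy. How the reads shared by a gene and its copy were assigned is not stated in the labels, so levels of these members are uncertain. The windows below show how little separates 4 members from the copy discussed with each, with the differing bases in capitals, all from GENCODE vM21 on GRCm38 and on the strand of the gene. The member windows are chr15:34442677-34442736, minus strand, for Rpl30, chr3:130729055-130729114, minus strand, for Rpl34, chr14:24493443-24495783, plus strand, for Rps24, where 60 bases of coding sequence span an intron, and chr17:24720317-24720376, plus strand, for Rps2. The copy windows are chr11:49678933-49678992, minus strand, for Gm12191, chr6:71124711-71124770, plus strand, for Rpl34-ps1, chrX:79195386-79195445, plus strand, for Rps24-ps3, and chrX:52898629-52898688, plus strand, for Rps2-ps13.
Rpl30: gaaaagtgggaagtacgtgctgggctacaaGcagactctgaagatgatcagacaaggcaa
Gm12191: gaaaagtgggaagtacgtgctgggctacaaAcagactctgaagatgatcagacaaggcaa
Rpl34: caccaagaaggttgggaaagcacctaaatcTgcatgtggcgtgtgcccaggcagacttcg
Rpl34-ps1: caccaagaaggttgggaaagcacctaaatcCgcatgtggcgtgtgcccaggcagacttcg
Rps24: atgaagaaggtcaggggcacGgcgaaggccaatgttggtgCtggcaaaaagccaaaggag
Rps24-ps3: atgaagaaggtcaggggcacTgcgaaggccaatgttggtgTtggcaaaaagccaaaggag
Rps2: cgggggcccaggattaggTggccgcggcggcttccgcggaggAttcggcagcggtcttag
Rps2-ps13: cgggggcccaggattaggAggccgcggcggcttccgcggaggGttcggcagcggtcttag
Over the aligned coding stretch the copy differed from its gene at 1 of 345 bases for Rpl30, 1 of 179 for Rpl34, 4 of 399 for Rps24 and 7 of 879 for Rps2.

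Rpl30 and its copy Gm12191 moved in opposite directions in single libraries. Rpl30 read 12.45, 13.43, 14.14, 12.91 and 13.68 in Falcor-/- libraries, 13.83, 13.81, 13.54 and 13.68 in Foxa2+/- libraries, 13.63, 14.13, 13.25 and 13.80 in Double-Het libraries and 13.60, 13.58, 13.77, 13.76 and 13.88 in wild-type libraries. Gm12191 read 12.01, 11.51, 9.41, 12.30 and 11.64 in Falcor-/- libraries, 8.90, 9.39, 9.04 and 8.87 in Foxa2+/- libraries, 11.63, 9.54, 11.38 and 9.22 in Double-Het libraries and 8.64, 8.54, 8.94, 8.78 and 9.06 in wild-type libraries. The copy was at 11.38 or more in 4 Falcor-/- and 2 Double-Het libraries, and the lowest Rpl30 levels, in Falcor-/- replicates 6 and 9 and Double-Het replicate 17, were among these. With the linear levels of Rpl30 and its copies added, the SD within genotypes was 0.24 in place of 0.40. The Falcor-/- change was then 0.0075 in place of -0.40.

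Rpl34-ps1 was low, between 11.19 and 11.88, in the 6 libraries where Rpl34 was high, and between 12.04 and 12.84 in the other 12. Summing the pair gave an SD of 0.39 in place of 0.78 and a Falcor-/- change of 0.089 in place of -0.44. Rps24-ps3, on chromosome X, was between 9.19 and 9.86 in all 5 Falcor-/- libraries and between 11.75 and 12.74 in all 5 wild-type libraries, a change of -2.56 ± 0.64 (limma adjusted p = 0.0267). Rps24 summed with its copies still rose in Falcor-/- cells, by 0.46 (limma adjusted p = 0.0170) in place of 0.73. In cells labelled Double-Het the summed Rps24 change was 0.25 (limma adjusted p = 0.135), so that call was lost. Summing was not always steadying. Rps2-ps13 was between 13.22 and 13.40 in Foxa2+/- replicates 11, 12 and 14 and wild-type replicates 3 and 4 and between 5.03 and 8.67 elsewhere, and the SD of Rps2 summed with its copies was 0.36 in place of 0.27. The summed Rps2 change was 0.47 in Falcor-/- cells (limma adjusted p = 0.130) and 0.55 in cells labelled Double-Het (limma adjusted p = 0.110).

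**Figure D5:**
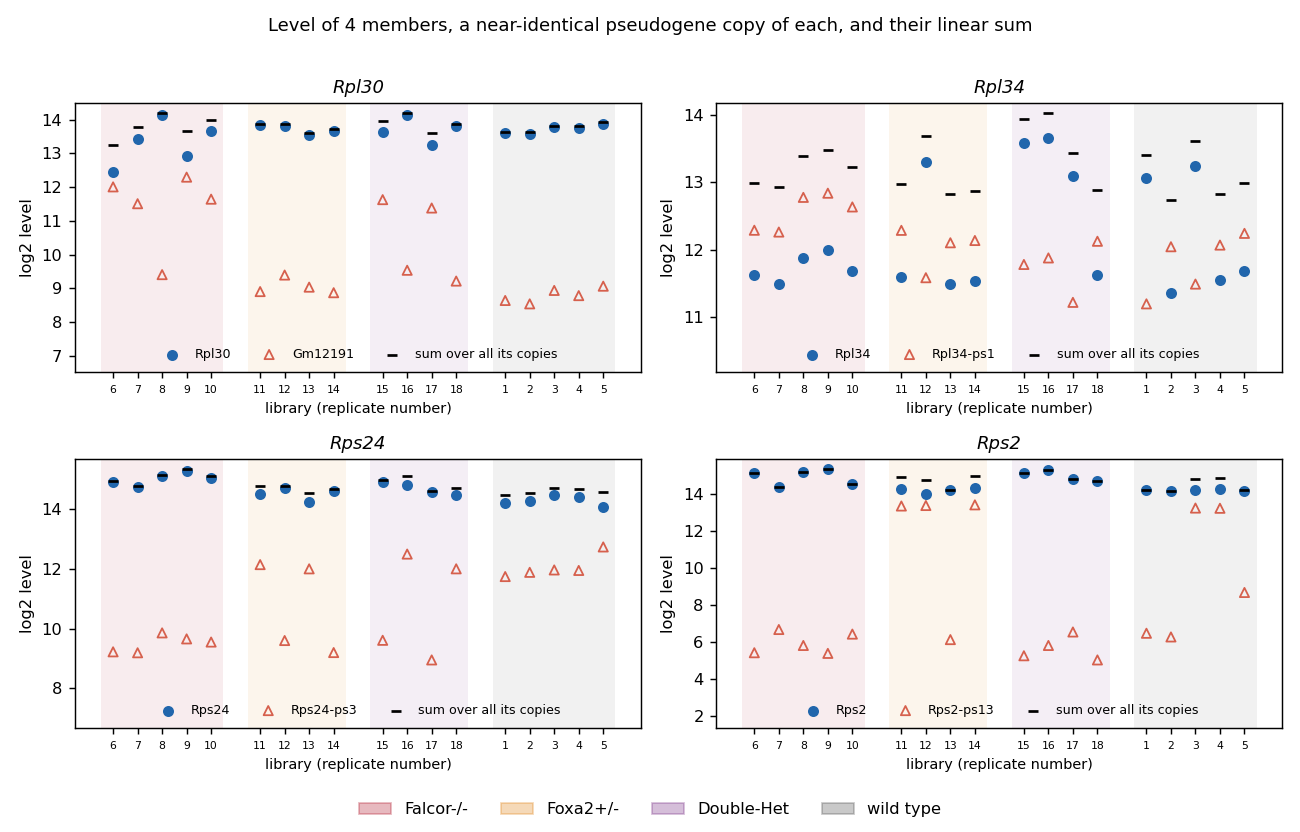
Log2 level of Rpl30, Rpl34, Rps24 and Rps2 (filled circles), of a near-identical pseudogene copy of each (open triangles) and of the linear sum of the gene with all its measured copies (black dashes), by library; shading gives the genotype. The lowest Rpl30 levels are in libraries where Gm12191 is at 11.38 or more, Rpl34 is high where Rpl34-ps1 is at 11.88 or less, and Rps24-ps3 is below 9.90 in all 5 Falcor-/- libraries.

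Of the 56 members with copies the SD fell in 23 when copies were added. The number of members higher in Falcor-/- than in wild-type cells was 42 with copies added and 41 without. The share of all genes called with copies added is not given. Of the 20 members with no measured copy 12 were called higher in Falcor-/- cells, with a median change of 0.35, and of the 56 with a copy 29 were, with a median of 0.35. The copies had changes of their own. Of 94 copies tested 25 were higher and 2 lower in Falcor-/- than in wild-type cells, or 28.7% called, against 9.47% of all genes. In Foxa2+/- cells limma called 0, and 17 or 18.1% passed without adjustment, against 19.2% of all genes. In cells labelled Double-Het 9 were higher and 1 lower, or 10.6% called, against 14.8% of all genes. Rps26-ps1 changed by 3.27 ± 0.35 in Falcor-/- cells (limma adjusted p = 0.000169) and read 11.41, 11.40, 11.68, 11.89 and 11.63 there, against 8.24, 7.92, 8.46, 8.49 and 8.56 in wild-type libraries. Gm10020, a copy of Rpl15, read 4.61, 5.19, 5.51, 5.22 and 4.51 in Falcor-/- libraries, against 9.97, 9.82, 10.13, 9.90 and 9.84 in wild-type libraries, a change of -4.92 ± 0.70 (limma adjusted p = 0.00131). With its copies added, Rpl15 changed by 0.26 in Falcor-/- cells (limma adjusted p = 0.0524) in place of 0.39.

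The members differ in features that the rule did not use, and their counts in Falcor-/- against wild-type cells are given by these. Among the 25 members with a pyrimidine run of at least 5 at the start 17 were called, with a median change of 0.36. Among the 31 with a shorter run 15 were called, with a median of 0.32, and among the 20 with no start listed 9 were called, with a median of 0.35. Of the 4 members on chromosome X, Rpl36a, Rpl39, Rps4x and Rpl10, the first 3 were called. No test was made between these sets.

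Other parts of the translation machinery were counted in Falcor-/- against wild-type cells, where 5.23% of all genes were higher and the median change was 0.029. Of 4 ribosomal components whose symbols fall outside the rule 2 were higher, Rack1 at 0.29 (limma adjusted p = 0.0315) and Rps3a1 at 0.31 (limma adjusted p = 0.0487). Of 13 other mRNAs with a classical TOP tract 5 were higher and none lower, with a median change of 0.26. Among them were Eif3h, a subunit of initiation factor eIF3, at 0.36 (limma adjusted p = 0.0106), and Naca, which binds new chains as they leave the ribosome, at 0.37 (limma adjusted p = 0.0240). Of 8 elongation factors 2 were higher, Eef1b2 at 0.41 (limma adjusted p = 0.0294) and Eef1d at 0.37 (limma adjusted p = 0.0308), both exchange factors for eEF1A, while Eef2, which moves the ribosome along the mRNA, changed by 0.021 (limma adjusted p = 0.871). Of 34 initiation factors 3 were higher and 1 lower. This list shares Eif3e, Eif3f, Eif3h, Eif3k, Eif3l, Eif4b and Pabpc1 with the list of other TOP mRNAs, so the counts are not separate. Of 40 factors for ribosome biogenesis 3 were higher and none lower, with Fbl, the methyltransferase that modifies ribosomal RNA, at 0.39 (limma adjusted p = 0.0184) and Pes1 at 0.27 (limma adjusted p = 0.0291). Of 12 RNA polymerase I genes 1 was higher, Taf1d at 0.25 (limma adjusted p = 0.0323). Of 2 measured host genes of small nucleolar RNAs 1 was higher, Gas5, whose own RNA carries a TOP tract, at 0.34 (limma adjusted p = 0.0482). Of 5 measured ribosomal protein paralogs 1 was higher, Rps27rt at 0.49 (limma adjusted p = 0.0407). Of 75 mitochondrial ribosomal protein genes 5 were higher and none lower, with a median change of 0.22.

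Genes known to control these mRNAs or to respond to ribosomal stress were counted in the same way. Of 18 genes of mTORC1 and of TOP mRNA control 0 were called in Falcor-/- against wild-type cells by limma and 6 or 33.3% passed without adjustment, against 33.5% of all genes, with a median change of 0.0071, and the smallest p-value was that of Sesn1, an inhibitor of mTORC1 in amino acid shortage, at -0.35 (limma adjusted p = 0.0551). Sesn2, its relative, was higher in Foxa2+/- cells at 0.56 (limma adjusted p = 0.00274) and in cells labelled Double-Het at 0.43 (limma adjusted p = 0.00989), and Sesn1 was lower in cells labelled Double-Het at -0.40 (limma adjusted p = 0.0307). Of 10 targets of p53, the factor activated when ribosome assembly is disturbed, 2 were higher and 1 lower in Falcor-/- cells, Gdf15 being higher at 1.03 (limma adjusted p = 0.0234) and Ccng1 lower at -0.23 (limma adjusted p = 0.0119). In cells labelled Double-Het 1 was higher, Sesn2, and 1 lower, Cdkn1a at -0.89 (limma adjusted p = 0.000921). In Foxa2+/- cells the 1 target called was also Sesn2. This gene is on the list of mTORC1 and TOP mRNA control too, so these counts are not separate. All genes called were 9.47% in Falcor-/-, 6.11% in Foxa2+/- and 14.8% in Double-Het cells. In Foxa2+/- cells limma called 0 of the elongation, initiation, biogenesis and other TOP genes. Without adjustment 8.82% of the initiation and 12.5% of the biogenesis factors passed there, and 0 of the elongation and other TOP genes, against 19.2% of all genes.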

How the data were processed

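The deposited values are log2 expression levels of 15544 Ensembl genes in 18 libraries. STAR, the genome build mm9 and limma are named in the submitters' processing notes. The counter, the versions and the treatment of reads that map to several places are not stated there. Values at the same rank differ between libraries by at most 0.0512 over the top 90% of ranks, which shows that the authors quantile normalized them before deposit, so depth is unknown and no counting interval is given.

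Gene names came from GENCODE vM21 (14994 of 15544 matched). Genes with a mean under 6 were left out, and 15249 were tested. A model with 1 mean per genotype over all 18 libraries was fitted with limma 3.58.1 in R 4.3.3, with an intensity trend. P-values were 2-sided and adjusted by Benjamini-Hochberg over all tested genes, and the call threshold was 0.05. A change is the mutant minus the wild-type mean, or the first-named minus the second-named genotype, with the SE of the model. The procedure was tested on simulated data. Copies were found with blastn 2.17.0, each assigned to its best-matching member, and their linear levels were added to the member's before taking log2.

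The members and lists were chosen with earlier results of these data known. Named in each comparison with wild type were the 5 large-subunit and 5 small-subunit members with the smallest p, up to 3 with changes against the direction of the median, the stalk, Rpsa, Fau, Rps6 and Rps27a. Between mutants, members with the smallest p were named. A member that these rules also name is not reported here. Members with uneven levels, those with copies, and Rpl5, Rpl11 and Rps19 were named after their values were seen. The alternatives were no filter, library weights, no trend, other centrings, an endothelial or Epcam covariate, copies added, the compared genotypes alone, an exact permutation test, and leaving out each library.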

Additional observations from a re-analysis of the deposited data

Results flagged for a closer look

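Of 124 groups of 4 or 5 libraries of single members, 7 held a library far from the others of its genotype. Chance alone would mark 1 in 20 groups, but these groups were not a neutral choice, so their share cannot be set against that rate. The groups did not cover all 76 members, and Rpl29, Rpl34 and Rps18 had been named for their large SD within genotypes. Rpl34 read 13.3 in Foxa2+/- replicate 12, against 11.49 to 11.59 in the other libraries of that genotype. Rpl29 read 13.52 in Foxa2+/- replicate 11, against 9.54 to 9.94 in the others, and 9.90 in Double-Het replicate 15, against 13.37 to 13.91 in the others. Rps18 read 12.38 in Foxa2+/- replicate 12, against 13.72 to 13.91 in the others, and 12.46 in wild-type replicate 5, against 13.65 to 13.90 in the others. Rpl21 read 13.88 in wild-type replicate 2, against 14.52 to 14.77 in the others. Rplp2 read 13.94 in Foxa2+/- replicate 13, against 14.16 to 14.20 in the others.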

How the results depend on the processing

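With 1 library left out in turn, the number of members called ran from 4 to 66 for Falcor-/- against wild type, 0 to 1 for Foxa2+/- against wild type, 1 to 6 for Double-Het against wild type, 3 to 61 for Falcor-/- against Foxa2+/-, 0 to 1 for Double-Het against Foxa2+/- and 0 to 1 for Double-Het against Falcor-/-. With library weights the counts against wild type were 65 in Falcor-/- cells, 1 in Foxa2+/- cells and 65 in cells labelled Double-Het, where all genes called were 22.6% in Falcor-/-, 12.8% in Foxa2+/- and 32.4% in Double-Het cells. They were 61 for Falcor-/- against Foxa2+/-, with 31.2% of all genes, and 7 for Double-Het against Foxa2+/-, with 13.9%. With the endothelial mean as a covariate they were 2 for Falcor-/- and 0 for Double-Het against wild type, and 0 for both against Foxa2+/-. All genes called there were 1.06% for Falcor-/- and 0.0131% for Double-Het against wild type. Against Foxa2+/- they were 0.177% for Falcor-/- and 1.85% for Double-Het. Without adjustment 6.58% of the members passed for Double-Het against Foxa2+/- there, against 17.7% of all genes. With the Epcam level as a covariate, chosen after seeing the data, the counts of members were 0 for Falcor-/- and 0 for Double-Het against wild type, 6 for Falcor-/- and 0 for Double-Het against Foxa2+/-, and 6, all lower, for Double-Het against Falcor-/-. All genes called in either direction were 6.53% for Falcor-/- against Foxa2+/- and 9.06% for Double-Het against Falcor-/- there, beside 7.89% of the members. In the comparison of Falcor-/- with Foxa2+/- all 6 members were called higher, as were 602 of 15249 genes. For Double-Het against Falcor-/- 676 of all genes were called lower. Without adjustment 47.4% of the members passed for Falcor-/- against Foxa2+/-, against 24.4% of all genes. For Double-Het against Falcor-/- it was 76.3% of the members, against 27.5%. The median change with this covariate was 0.11 for Falcor-/- and -0.060 for Double-Het against wild type and -0.012 for Double-Het against Foxa2+/-. The compared genotypes alone gave 8 for Falcor-/- and 3 for Double-Het against wild type and 19 for Falcor-/- against Foxa2+/-, and no trend gave 19 there. With copies added, also chosen after seeing the data, Double-Het had 2 against wild type and 0 against Foxa2+/-. The unadjusted exact permutation test gave 66 for Falcor-/- against wild type, where it passed 26% of all genes, 61 for Falcor-/- and 4 for Double-Het against Foxa2+/-, and 2 for Double-Het against Falcor-/-. For the omissions, the compared genotypes alone, no trend and copies added, the share of all genes called is not given. Those counts therefore have no background beside them. The cause of the differences between settings was not tested.

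The sign of some small changes turned. With copies added, Rpl34 and Rpl30 changed by 0.089 and 0.0075 in Falcor-/- cells and Rpl30 by 0.14 in cells labelled Double-Het. With the endothelial covariate Rpl23a changed by -0.018 in Foxa2+/- cells and Rps18 by -0.29 in cells labelled Double-Het. With the Epcam covariate Rps15a and Rps25 changed by -0.024 and -0.031 in Foxa2+/- cells and Rps21 by -0.023 in cells labelled Double-Het. With 1 library left out, Rpl29 ran from -1.49 to 0.035 and Rpl34 from -0.64 to 0.072 in Foxa2+/- cells, and Rpl30 from -0.16 to 0.14 in cells labelled Double-Het, where it was 0.066 with library weights. No filter and both other centrings moved no count beyond 1.5 times. No paired analysis was possible because the replicate numbers 1 to 18 are unique and none is shared between genotypes. Depth is unknown, so the smallest change it allows cannot be given.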
